A study of Mus musculus with 4 samples.

Results

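*Cdh1*, *Epcam*, *Cdh2*, *Cdh11*, *Vim*, *Snai1*, *Snai2*, *Twist1*, *Zeb1* and *Zeb2* are genes of cell adhesion and of the epithelial-mesenchymal transition (EMT). They were chosen by symbol and are 10 of the 32286 features that the libraries of all days list. Gastruloids, aggregates of embryonic stem cells that form the germ layers in culture, were made from Zx1 mouse embryonic stem cells with a wild type genotype. All were grown in N2B27 medium with a pulse of the GSK3 inhibitor CHIR99021 that ended before the first collection, and bFGF, VEGF and ascorbic acid were given from day 4 and withdrawn before day 11. Dissociated cells of pooled gastruloids were profiled by 3′ single-cell RNA sequencing at days 4, 5, 6 and 11, and the days were compared to follow the cell types that form over time. Each day is a single library, so no difference between days has a replicate check, no p-value is given, and all intervals are 95% intervals that cover counting error only.

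Epithelial cells adhere through E-cadherin, the product of *Cdh1*, and through EPCAM, an adhesion molecule of the epithelial cell membrane. In EMT, cells leave an epithelium, reduce E-cadherin and gain N-cadherin (*Cdh2*) or cadherin-11 (*Cdh11*) and the intermediate filament vimentin (*Vim*). The transcription factors Snail (*Snai1*), Slug (*Snai2*), *Zeb1* and *Zeb2* bind E-box sequences and repress *Cdh1*, and *Twist1* is a bHLH factor of mesodermal and mesenchymal cells. In the embryo, mesoderm forms by EMT at the primitive streak, where *Snai1* is needed to lower E-cadherin, while definitive endoderm keeps or regains an epithelial state and the heart muscle carries N-cadherin at its cell junctions.

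On mm10, *Cdh1* (ENSMUSG00000000303) lies at chr8:106603351-106670246 on the plus strand and *Cdh11* at chr8:102632095-102785642 on the minus strand. *Vim* (chr2:13573927-13582826, plus), *Snai1* (chr2:167538195-167542814, plus) and *Zeb2* (chr2:44983632-45117395, minus) share a chromosome. *Epcam* lies at chr17:87635979-87651129, *Snai2* at chr16:14705852-14709385 and *Twist1* at chr12:33957671-33959829, all on the plus strand. All 10 are protein-coding genes in the GENCODE M21 annotation, and a level in counts of 3′ ends sums over the transcripts of a gene.

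Promoter sequences are shown for *Epcam*, whose level followed that of *Cdh1* over groups of cells, and for *Snai1*, since Snail and ZEB proteins are known to bind CAGGTG. RefSeq windows on GRCm38.p6, from 250 bases before to 50 bases after the start site, were held for 5 of the 10 genes (*Epcam*, *Snai1*, *Twist1*, *Vim* and *Zeb2*, 8 windows in all). CAGGTG was searched on both strands, where the other strand reads CACCTG, and matches are in capitals. The *Epcam* window lies at chr17:87635729-87636028 on the plus strand and holds the motif at 2 positions, which begin 187 and 19 bases before the start site. The *Snai1* window lies at chr2:167537945-167538244 on the plus strand and holds 1 match, 126 bases before the start site.
Epcam: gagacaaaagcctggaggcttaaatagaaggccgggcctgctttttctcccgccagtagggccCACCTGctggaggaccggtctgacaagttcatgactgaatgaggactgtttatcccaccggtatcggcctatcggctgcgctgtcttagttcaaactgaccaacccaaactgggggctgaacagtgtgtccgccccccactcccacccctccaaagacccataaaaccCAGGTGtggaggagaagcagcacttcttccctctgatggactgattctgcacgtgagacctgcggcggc
Snai1: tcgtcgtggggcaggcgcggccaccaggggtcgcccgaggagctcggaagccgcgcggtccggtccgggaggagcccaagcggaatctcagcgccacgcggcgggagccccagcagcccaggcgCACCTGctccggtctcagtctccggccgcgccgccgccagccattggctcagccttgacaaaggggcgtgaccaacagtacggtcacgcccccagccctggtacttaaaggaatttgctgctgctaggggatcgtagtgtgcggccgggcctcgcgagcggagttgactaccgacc
The motif is in 6634 of all 32817 promoter windows, or 20.2%, so that a match by itself is common. The windows of *Twist1*, *Vim* and *Zeb2* did not hold these letters.

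Between 5254 and 7854 cells per day were kept, with a median of 11427.0 UMIs per cell at day 11 and of 24197.0 to 28147.0 UMIs at days 4 to 6. The cells of each day were clustered without the 10 genes into 14, 18, 19 and 26 groups at days 4, 5, 6 and 11, and a group was named "X-like" where markers of 1 cell type were raised. The groups without a name held 77.8%, 79.2%, 58.9% and 32.7% of the cells of these days. Pairs of libraries shared 5 to 19 cell barcodes. A level by day is the sum of a gene's UMIs over the kept cells, scaled to a total of 1000000 UMIs (CPM). In such sums, fewer cells of a type and less RNA per cell cannot be told apart.

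*Cdh1* was lower at each later day. The largest difference in CPM lay between days 5 and 6. In the kept cells the smallest ratio lay between days 6 and 11. With every barcode of over 200 genes it lay between days 5 and 6 instead (0.251, against 0.325 from day 6 to day 11). *Cdh1* was at 13.7 CPM at day 4 (interval 13.2 to 14.25), 11.3 CPM at day 5 (10.8 to 11.8), 2.68 CPM at day 6 (2.42 to 2.955) and 0.395 CPM at day 11 (0.288 to 0.528). The day 11 level rests on 45 UMIs in 24 cells. The ratio of day 5 to day 4 was 0.823, that of day 6 to day 5 was 0.237 (0.213 to 0.264), and that of day 11 to day 6 was 0.147 (0.106 to 0.201).

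*Epcam* did not follow *Cdh1* between the first days, since it was highest at day 5. *Epcam* was at 62.8 CPM at day 4, 93.2 CPM at day 5, 28.4 CPM at day 6 and 9.22 CPM at day 11 (8.67 to 9.79). The later levels were below 0.5 of the level before, with a ratio of 0.305 from day 5 to day 6 and of 0.325 from day 6 to day 11.

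The mesenchymal cadherins were lowest at day 5. *Cdh2* was at 88.0 CPM at day 4, 37.4 CPM at day 5 (36.5 to 38.2), 89.9 CPM at day 6 and 104.5 CPM at day 11 (102.7 to 106.4). *Cdh11* was at 44.3 CPM, 14.9 CPM, 34.2 CPM and 101.7 CPM at days 4, 5, 6 and 11. The intervals of *Cdh2* at days 4 and 6 overlap, whereas *Cdh11* was lower at day 6 than at day 4 and 2.97-fold higher at day 11 than at day 6 (2.87 to 3.07). *Vim* had another course, with 412 CPM at day 4, 1308 CPM at day 5, 1484 CPM at day 6 and 1579 CPM at day 11. Its difference lay between days 4 and 5, with a ratio of 3.18 (3.15 to 3.20).

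The transcription factors did not share a course. *Snai1* was highest at day 4, with 35.0 CPM, then 14.4 CPM at day 5, 24.9 CPM at day 6 and 13.2 CPM at day 11 (12.5 to 13.9). *Snai2* was lowest at day 4, at 18.1 CPM (17.5 to 18.7), with an interval of 29.2 to 30.8 CPM at day 5 and levels of 34.4 and 35.0 CPM at days 6 and 11, whose intervals overlap. *Twist1* peaked at day 6, with 102.6, 91.5, 166.5 and 114.1 CPM at days 4, 5, 6 and 11. The ZEB genes were higher at days 6 and 11 than before. *Zeb1* was at 26.3, 23.5, 59.5 and 90.7 CPM, and *Zeb2* at 34.7, 25.8, 56.9 and 163.2 CPM (160.8 to 165.5), at days 4, 5, 6 and 11. From day 4 to day 11, *Snai1* was therefore the only one of these 5 factors whose last level was well below its first, and the ZEB genes had their lowest level at day 5.

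**Figure D1:**
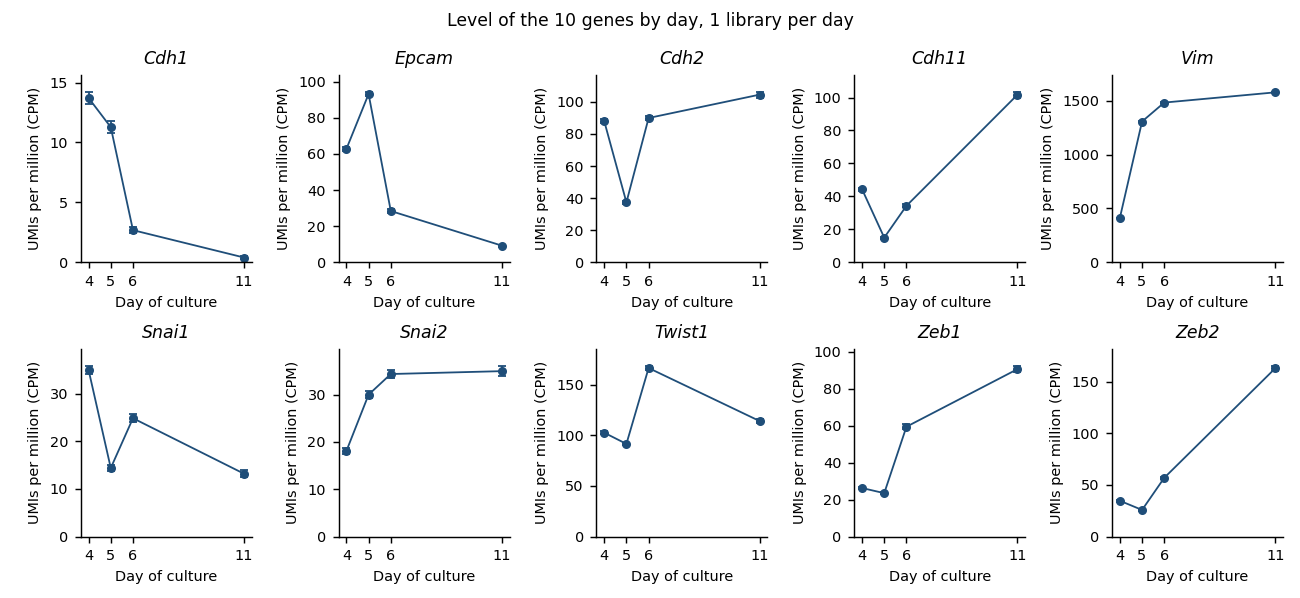
Level of each of the 10 genes, as its UMIs in a total of 1000000 (CPM) over the kept cells, against the day of culture, with 95% Poisson intervals that are often smaller than the points. *Cdh1* goes from 13.7 to 0.395 CPM while *Zeb2* goes from 34.7 to 163.2 CPM, and *Cdh2* and *Cdh11* have their lowest point at day 5.

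With 1 library per day, a ratio of at least 2 or at most 0.5 was used as a rule of size in place of a test, over genes with at least 50 UMIs in the pair of libraries. All 10 genes had enough UMIs in each step. From day 4 to day 5, 1 of the 10 genes was past the rule upward (*Vim*), beside 17.7% of 16213 genes, and 3 were past it downward (*Cdh2* with a ratio of 0.424, *Cdh11* with 0.337 and *Snai1* with 0.411), beside 7.23% of genes. From day 5 to day 6, 4 were higher (*Cdh2* 2.41-fold, *Cdh11* 2.29-fold, *Zeb1* 2.53-fold and *Zeb2* 2.21-fold), beside 17.7% of 16521 genes, and 2 were lower (*Cdh1* and *Epcam*), beside 12.8%. From day 6 to day 11, 2 were higher (*Cdh11* and *Zeb2*, 2.87-fold), beside 18.3% of 16311 genes, and 2 were lower (*Cdh1* and *Epcam*), beside 7.07%. The step from day 5 to day 6 was the only one in which *Cdh1* and *Cdh2* were both past the rule, in opposite directions. Size factors by the median of ratios shift all genes of that step by -0.20 on the log2 scale and bring *Cdh11* (1.999) and *Zeb2* (1.92) under 2, and TMM factors bring *Snai1* from 0.531 to 0.490 in the step from day 6 to day 11. Averaging the CPM of single cells brings *Twist1* from 1.82 to 2.02 in the step from day 5 to day 6.

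Other genes of adhesion and EMT were described from lists written with earlier results of these data known. Of 32 genes of epithelial junctions and epithelial identity, 14 were past 2-fold upward and 3 downward from day 4 to day 5, 2 upward and 19 downward from day 5 to day 6, and of 29 with enough UMIs 0 upward and 20 downward from day 6 to day 11. The median log2 ratio of this list was 0.51, -1.31 and -1.58 in the 3 steps, beside 0.09, 0.16 and 0.10 over all genes tested. *Pkp3*, a desmosomal plakophilin, was at 0.412, 2.65 and 0.260 CPM at days 4, 5 and 6. *Krt8*, a keratin of simple epithelia, was likewise highest at day 5, with 140.4, 478.3, 75.8 and 10.7 CPM at days 4, 5, 6 and 11. More genes of this list were thus higher than lower at day 5, the day at which *Cdh2* and *Cdh11* were lowest.

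The shares of all genes past 2-fold upward (17.7%, 17.7% and 18.3%) and downward (7.23%, 12.8% and 7.07%) in the 3 steps are the background for the counts of the other lists. Of the mesenchymal motility and matrix genes, 5 of 15 were past 2-fold upward and 1 downward from day 4 to day 5, 6 of 16 and 1 from day 5 to day 6, and 9 of 18 and 1 from day 6 to day 11, with a median log2 ratio of 0.80, 0.40 and 0.96. Smooth muscle actin *Acta2* went from 8.82 CPM at day 5 to 460.9 CPM at day 6, the fibroblast protease *Fap* from 0.307 CPM at day 6 to 11.2 CPM at day 11, and the collagen crosslinker *Lox* from 0.293 to 8.67 CPM. *Fn1*, the matrix protein fibronectin, was the 1 gene past the rule downward at the first step, with 356.7 CPM at day 4 and 167.0 CPM at day 5. The other cadherins of the list had 3 higher and 4 lower of 8 in the first step, 6 and 1 of 10 in the second, and 9 and 1 of 14 in the third, with medians of -0.46, 2.31 and 1.68. *Cdh5*, the cadherin of endothelial cells, went from 0.0979 CPM at day 4 to 3.18 CPM at day 5 and 36.3 CPM at day 6. *Cdh15*, the cadherin of skeletal muscle, went from 0.0400 CPM at day 6, with 6 UMIs, to 5.29 CPM at day 11.

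Among other EMT transcription factors, 1 of 14 was higher and 2 were lower past 2-fold from day 4 to day 5, 8 and 3 from day 5 to day 6, and 2 and 2 from day 6 to day 11, with medians of -0.07, 1.16 and -0.60. *Twist2*, a relative of *Twist1*, was at 9.56 CPM at day 5 and 32.2 CPM at day 6. Of 18 genes of EMT signalling, 3, 6 and 2 were higher and 2, 3 and 2 lower in the 3 steps, with medians of -0.14, 0.71 and -0.11. *Fgf8*, a ligand of the streak, went from 87.8 CPM at day 4 to 13.8 CPM at day 5, and *Wnt3* from 15.8 CPM at day 5 to 0.873 CPM at day 6. Of 6, 7 and 7 catenins, 2, 1 and 3 were higher and 1, 0 and 0 lower, with medians of -0.07, 0.48 and -0.31. Of 12 genes of cadherin regulation, 0, 1 and 0 were higher and 0, 0 and 1 lower, with medians of -0.32, 0.33 and 0.11.

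*Cdh1* UMIs made up 13.5% of the UMIs of *Cdh1* and *Cdh2* together at day 4 (exact binomial interval 13.01 to 13.97%), 23.2% at day 5 (22.4 to 24.1%), 2.89% at day 6 (2.62 to 3.185%) and 0.376% at day 11 (0.2745 to 0.503%). The share was thus highest at day 5, where *Cdh1* was not higher than at day 4 but *Cdh2* was lower. Without the endoderm-like groups it was 8.78%, 9.31%, 0.834% and 0.0757%. The day 11 value also turned on the filter of cells by their total UMIs. At that day 190 cells were removed for a total that was too high, and 13 of them held 74 *Cdh1* UMIs, more than the 45 UMIs of all kept cells. With every barcode of over 200 genes the day 11 share was 0.944% and the ratio of *Cdh1* from day 6 to day 11 was 0.325. For *Epcam*, 18 of those 190 cells held 897 UMIs, against 1051 UMIs in the kept cells, and its ratio was 0.484 in place of 0.325.

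Cells were then classed by whether they held a UMI of *Cdh1*, of *Cdh2*, of both or of neither. With all UMIs, 375 of 6555 cells (5.72%) had *Cdh1* alone at day 4, 4639 (70.8%) had *Cdh2* alone, 617 (9.41%) had both and 924 (14.1%) had neither. At day 5 the shares were 8.50% with *Cdh1* alone, 52.5% with *Cdh2* alone, 5.44% with both and 33.5% with neither. At day 6 they were 1.41%, 72.9%, 1.16% and 24.5%, and at day 11 0.166%, 52.6%, 0.140% and 47.1%. Cells with both were 351 at day 5, 61 at day 6 and 11 at day 11. Before thinning, cells with *Cdh2* alone were therefore the larger part of the cells of every day, and cells with *Cdh1* were fewest at day 11.

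Cells with both cadherins were deeper than the others, with a median of 32067.0, 33930.0, 44296.0 and 35064.0 UMIs at days 4, 5, 6 and 11, against 24927.0, 29709.0, 25578.0 and 13084.0 UMIs for cells with *Cdh2* alone. Each cell was therefore also thinned at random to 5000 UMIs, leaving out 12 cells at day 6 and 319 at day 11 that had fewer. After thinning, 3.91% of cells had *Cdh1* alone, 32.7% *Cdh2* alone and 1.28% both at day 4 (both, 1.02 to 1.58%). At day 5 the shares were 4.32%, 15.5% and 0.465% (0.314 to 0.663%), at day 6 0.649%, 33.8% and 0.0763% (4 cells), and at day 11 0.0796%, 33.7% and 0.0265% (2 cells). Cells with neither were then the larger part of each day, with 62.1%, 79.7%, 65.4% and 66.2%. The share of cells with both was lower at day 5 than at day 4 in both counts, while the share with *Cdh1* alone was not: its thinned intervals of 3.45 to 4.40% and 3.84 to 4.85% overlap. Thinned shares of cells with *Cdh2* were 34.0%, 16.0%, 33.9% and 33.7% at days 4, 5, 6 and 11, so that day 5 was lower and the intervals of the other days overlap.

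Endothelium-like cells, which should lack E-cadherin, gave the background. After thinning, *Cdh1* was found in 0 of 30 such cells at day 4, which allows a share of up to 10.0% by the rule of 3 counts (11.6% by the exact interval), in 0.820% of them at day 5 (0.169 to 2.38%), in 0 of 362 at day 6, which allows up to 0.829% (1.01% by the exact interval), and in none at day 11, with an exact upper bound of 0.907%. Before thinning, 0 of 454 cells of day 11 had it, which allows up to 0.661% by the rule of 3 counts. In endoderm-like cells the intervals of the thinned share were 24.8 to 33.4%, 29.1 to 36.6%, 17.6 to 36.0% and 8.44 to 36.9% at days 4, 5, 6 and 11, all above the background of their day. Endothelium-like cells were the deeper of the 2 at days 4 and 5, with a median of 32252.5 and 31257.5 UMIs against 23963.0 and 28410.0, and the shallower at days 6 and 11, with 32710.5 and 16430.0 against 34896.0 and 26626.0. For *Cdh2*, the share in haematopoietic-like cells was 2.17% at day 11 (0.055 to 11.5%, median of 26288.0 UMIs), against 33.7% of all cells of that day (median of 11427.0 UMIs).

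**Figure D2:**
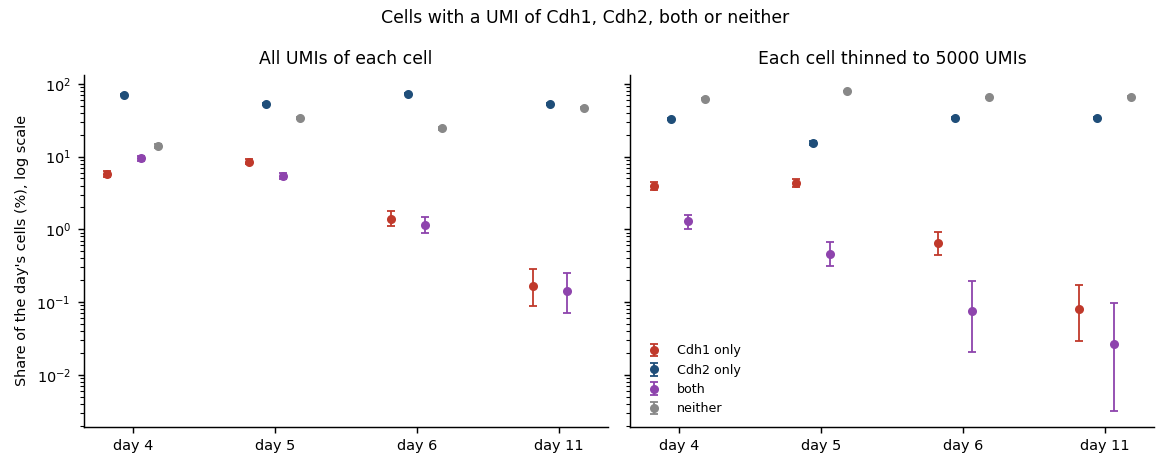
Share of the kept cells of each day, in percent on a log scale, with a UMI of *Cdh1* alone, *Cdh2* alone, both or neither, with all UMIs (left) and with each cell thinned to 5000 UMIs (right); bars are exact binomial 95% intervals. Cells with both go from 9.41% at day 4 to 0.140% at day 11 with all UMIs and from 1.28% to 0.0265% after thinning.

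*Cdh1* was high in few groups of cells. At day 4, the endoderm-like group (449 cells, led by *Spink1*, *Trh* and *Sox17*), the epiblast-like group (207 cells, led by *Pim2*, *Pou5f1* and *L1td1*), the naive pluripotent-like group (244 cells, led by *Dppa5a*, *Tdh* and *Klf2*) and the streak-like group (410 cells, led by *T*, *Lefty1* and *Fst*) had 78.4, 77.0, 54.1 and 48.8 CPM of *Cdh1*. Each of the other groups of that day was at 4.89 CPM or lower. Groups in which *Cdh1* was at least 20% of the UMIs of *Cdh1* and *Cdh2*, a limit chosen after the values were seen, held 96.0%, 93.0%, 92.8% and 80.0% of the *Cdh1* UMIs at days 4, 5, 6 and 11.

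The 4 groups with *Cdh1* at day 4 differed in *Cdh2*. The endoderm-like and streak-like groups had 86.0 and 76.2 CPM of *Cdh2*, close to the median of 85.0 CPM over the groups of day 4, whereas the epiblast-like and naive pluripotent-like groups had 19.6 and 16.5 CPM. *Cdh1* made up 47.7% and 39.1% of the UMIs of the 2 cadherins in the first pair and 79.7% and 76.6% in the other. In the endoderm-like group 61.0% of cells had both, 16.7% had *Cdh1* alone and the thinned share with both was 9.80%. In the streak-like group 36.1% had both, in the epiblast-like group 28.0% and in the naive pluripotent-like group 20.1%. After thinning these 3 shares were 6.83%, 1.93% and 1.23%, and the cells with both had a median of 23812.0, 45796.0 and 51459.0 UMIs. These cells of the endoderm-like and streak-like groups were 44.4% and 24.0% of all cells with both at day 4.

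At day 5, *Cdh1* was highest in the 2 endoderm-like groups, with 134.9 CPM in the one led by *Tnfrsf12a*, *Rgcc* and *Cldn6* (168 cells) and 66.2 CPM in the one led by *Spink1*, *Emb* and *Cldn7* (461 cells). Their *Cdh2* levels were 29.2 and 27.6 CPM, against a median of 38.9 CPM over the groups of the day, so that *Cdh1* made up 82.2% and 70.6% of the 2. The group of 168 cells has its name from the marker rule, and its leading genes given here are not among the endoderm markers. The naive pluripotent-like group (346 cells) had 42.2 CPM of *Cdh1* and the lowest *Cdh2* of the day, 4.33 CPM. Cells with both were 40.6% of the larger endoderm-like group, lower than in the endoderm-like group of day 4. An unnamed group of 98 cells with the leading genes *P4hb*, *Cbx3* and *Gm10076* stood between, with 17.9 CPM of *Cdh1* and 37.2 CPM of *Cdh2*.

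At day 6, the endoderm-like group (97 cells, led by *Spink1*, *Rbp4* and *Epcam*) had 66.4 CPM of *Cdh1* and held 72.1% of the *Cdh1* UMIs of the day in 1.85% of its cells. An unnamed group of 118 cells led by *Wfdc2*, *Sfrp2* and *Pcp4* had 13.7 CPM of *Cdh1* and 127.2 CPM of *Epcam*, and an unnamed group of 23 cells led by *Dppa5a*, *Utf1* and *Mt2* had 29.7 CPM of *Cdh1*. At day 11, 38 endoderm-like cells (0.484% of cells, led by *Afp*, *Apoa2* and *Ttr*) held 80.0% of the *Cdh1* UMIs and 82.3% of the *Epcam* UMIs, at 31.8 CPM (interval 22.3 to 44.1) and 765.0 CPM. The level of *Cdh1* in these kept cells was thus below the 78.4, 79.5 and 66.4 CPM (59.0 to 74.5) of the endoderm-like cells of days 4, 5 and 6. The 13 removed cells of day 11 that held 74 *Cdh1* UMIs were in no group, and the thinned shares of cells with *Cdh1* overlap between days 6 and 11 (17.6 to 36.0% and 8.44 to 36.9%). The *Epcam* level (714.8 to 817.7) was above the 382.8 and 497.4 CPM of days 4 and 5, and its interval overlaps that of day 6 (704.5 CPM, 679.8 to 729.8). The leading genes of the endoderm-like groups differed between day 11 and the earlier days, and the class is small at days 6 and 11.

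*Epcam* reached further than *Cdh1*. At day 5, an unnamed group of 472 cells led by *Actc1*, *Rgcc* and *Krt15* had 88.9 CPM of *Epcam* with 4.86 CPM of *Cdh1*, and a group of 215 cells led by *Hoxaas3*, *Hoxc8* and *Fgf8* had 82.5 CPM with 4.85 CPM. The median *Epcam* level over groups was 11.0 CPM at day 4, 36.2 CPM at day 5, 2.76 CPM at day 6 and 0.810 CPM at day 11. Of thinned cells with an *Epcam* UMI, 77.5%, 82.9%, 85.5% and 89.7% had no *Cdh1* UMI at these days. *Cdh1* has fewer UMIs than *Epcam*, and the part of this in the shares was not tested. Of thinned cells with *Cdh1*, 67.6%, 77.3% and 81.6% had *Epcam* at days 4, 5 and 6, as did all 8 such cells of day 11. As background, *Epcam* was in 3.33%, 5.19%, 0% and 0.247% of thinned endothelium-like cells at days 4, 5, 6 and 11.

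**Figure D3:**
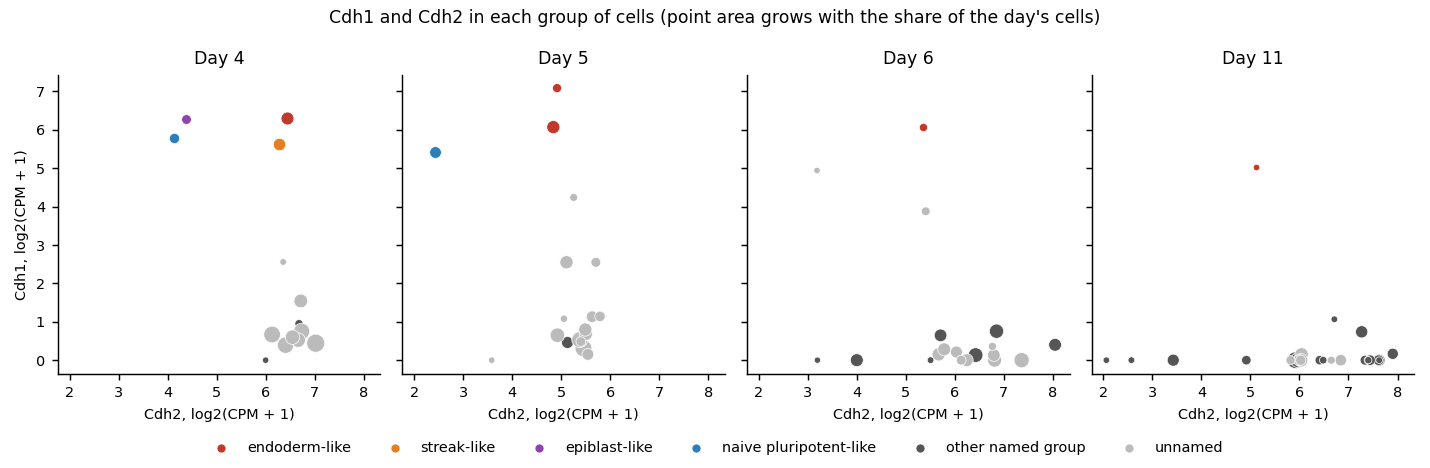
*Cdh1* against *Cdh2* in each group of cells, as log2(CPM + 1), by day, with endoderm-like, streak-like and pluripotent groups in colour. The endoderm-like and streak-like groups of day 4 lie at the right with 86.0 and 76.2 CPM of *Cdh2*, the epiblast-like and naive pluripotent-like groups at the left with 19.6 and 16.5 CPM, and nearly all other groups lie near the bottom.

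*Cdh2* varied across groups with little or no *Cdh1*. Cardiomyocyte-like cells had the highest level of day 6, 263.2 CPM, and of day 11, 238.4 CPM in the group led by *Myl2*, *Myh7* and *Myl3*. Neuron-like and neural progenitor-like cells of day 11 had 191.2 CPM (179.6 to 203.4) and 166.2 CPM (158.4 to 174.2), and the interval of the former overlaps that of all cardiomyocyte-like cells together, 192.9 CPM (187.7 to 198.2). Endothelium-like cells had 63.1, 33.8, 14.99 and 9.73 CPM at days 4, 5, 6 and 11. Skeletal myoblast-like cells of day 11 had 25.1 CPM, and 3.17 CPM in the group led by *Mylpf*, *Tnnc2* and *Acta1*. The endothelium-like, haematopoietic-like (4.94 CPM of *Cdh2*) and skeletal myoblast-like cells of day 11 were thus low in *Cdh2* and had no *Cdh1* UMI. The endoderm-like cells, with 33.6 CPM of *Cdh2*, were also below the median of 86.4 CPM over the groups of that day, but had *Cdh1* UMIs.

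*Cdh11* was low in all endoderm-like and pluripotent groups of days 4 to 6, where it ranged from 0.687 to 2.07 CPM. Its highest group was at 110.0 CPM at day 4, 29.8 CPM at day 5, 102.8 CPM at day 6 and 279.4 CPM at day 11, the last led by *Tlx1*, *Kazald1* and *Tac2*. *Vim* was highest in endothelium-like cells, with 4553 CPM at day 6 and 4174 CPM at day 11, while these cells had 14.99 and 9.73 CPM of *Cdh2*. The lowest *Vim* levels lay in naive pluripotent-like cells at days 4 and 5, at 81.4 and 97.8 CPM, and in endoderm-like cells at days 6 and 11, at 89.8 and 186.6 CPM.

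The highest groups of *Snai1* and *Snai2* were different at days 4, 6 and 11 and the same at day 5. *Snai1* at day 4 was highest in an unnamed group led by *Rspo3*, *Cited1* and *Hoxaas3* (84.5 CPM) and in one led by *Eomes*, *Myl7* and *Vstm2b* (72.5 CPM), and *Snai2* was at 1.08 and 1.51 CPM in these 2 groups. *Snai2* was instead highest at day 4 in the group led by *Ahnak*, *Stard8* and *Krt18*, with 47.2 CPM. At day 6, *Snai1* was highest in the group led by *Hes7*, *Dll3* and *Rspo3*, the first 2 of them genes of the presomitic mesoderm, at 83.3 CPM with 6.21 CPM of *Snai2*. The groups with the most *Snai1* at days 4 and 6 were therefore low in *Snai2*. This was not so at the other days: at day 5 the group led by *Cfc1*, *Msx2* and *Hand1* had the most of both, 22.5 CPM of *Snai1* and 57.0 CPM of *Snai2*, and at day 11 the group with the most *Snai1*, led by *Gal*, *Colec11* and *Pde1a*, had 36.7 CPM of *Snai1* and 76.9 CPM of *Snai2*. Over all 77 groups the Pearson r of the 2 genes was 0.47.

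*Twist1* was highest in groups led by *Twist1*, *Hand2* and *Prrx2* at day 4 (271.9 CPM), by *Sfrp5*, *Alcam* and *Shox2* at day 6 (356.0 CPM) and by *Lix1*, *Prrx1* and *Lhx9* at day 11 (527.5 CPM). *Zeb1* was highest in endothelium-like cells at days 4, 5, 6 and 11, with 61.5, 48.5, 112.2 and 161.1 CPM, followed at day 11 by 152.8 CPM in the skeletal myoblast-like group led by *Car3*, *Msc* and *Myog*. *Zeb2* was at 73.7, 72.2 and 104.2 CPM in endothelium-like cells at days 4, 5 and 6 but at 53.0 CPM (48.5 to 57.9) at day 11, when other groups had far more.

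*Zeb2* at day 11 ranged from 4.90 to 486.0 CPM over groups. The highest was a mesenchyme-like group led by *Dcn*, *Ecm1* and *Shisa3* (486.0 CPM), followed by neural crest-like cells (443.6 CPM) and another mesenchyme-like group led by *Foxf1*, *Actr3b* and *Ptch1* (398.0 CPM), and haematopoietic-like cells had 344.1 CPM. The lowest were 2 unnamed groups, one led by *Lix1*, *Prrx1* and *Lhx9* (4.90 CPM) and one led by *Cxcl14*, *2700069I18Rik* and *Irx3* (10.6 CPM), which had the highest *Twist1* of the day, 527.5 and 448.4 CPM. Their *Cdh11* (200.7 and 209.7 CPM), *Snai2* (48.0 and 53.4 CPM) and *Vim* (868.6 and 1575 CPM) were well above the levels of the endoderm-like group (15.9, 8.84 and 186.6 CPM). They had no *Cdh1* UMI, with 10.1 and 2.85 CPM of *Epcam*, so that low *Zeb2* in these 2 groups did not go with *Cdh1*.

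The shares of cells with a UMI were set beside those of endoderm-like cells, which should hold little of these factors. After thinning, *Snai1* was found in 15.2%, 7.12%, 11.0% and 6.81% of cells at days 4, 5, 6 and 11, against 2.23%, 3.97%, 0% and 8.57% of endoderm-like cells. The day 11 background rests on only 35 thinned endoderm-like cells, too few to set whether *Snai1* in all cells of that day was above it. *Snai2* was in 5.95%, 11.99%, 14.7% and 15.8% of cells, against 1.34%, 1.11%, 0% and 5.71% of endoderm-like cells. *Zeb1* was in 11.8%, 10.1%, 24.5% and 32.5%, against 0.891%, 0.636%, 0% and 2.86%, and *Zeb2* in 15.04%, 11.0%, 21.8% and 42.5%, against 2.00%, 1.11%, 1.04% and 5.71%. The ZEB genes were thus above the level of endoderm-like cells on each day, with the highest share at day 11. Before thinning, with unequal depth, the shares of *Zeb1* were 43.6%, 42.8%, 66.1% and 56.2% and those of *Zeb2* 52.5%, 44.7%, 62.6% and 59.3%, so that the order of days 6 and 11 depends on the depth of the cells.

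**Figure D4:**
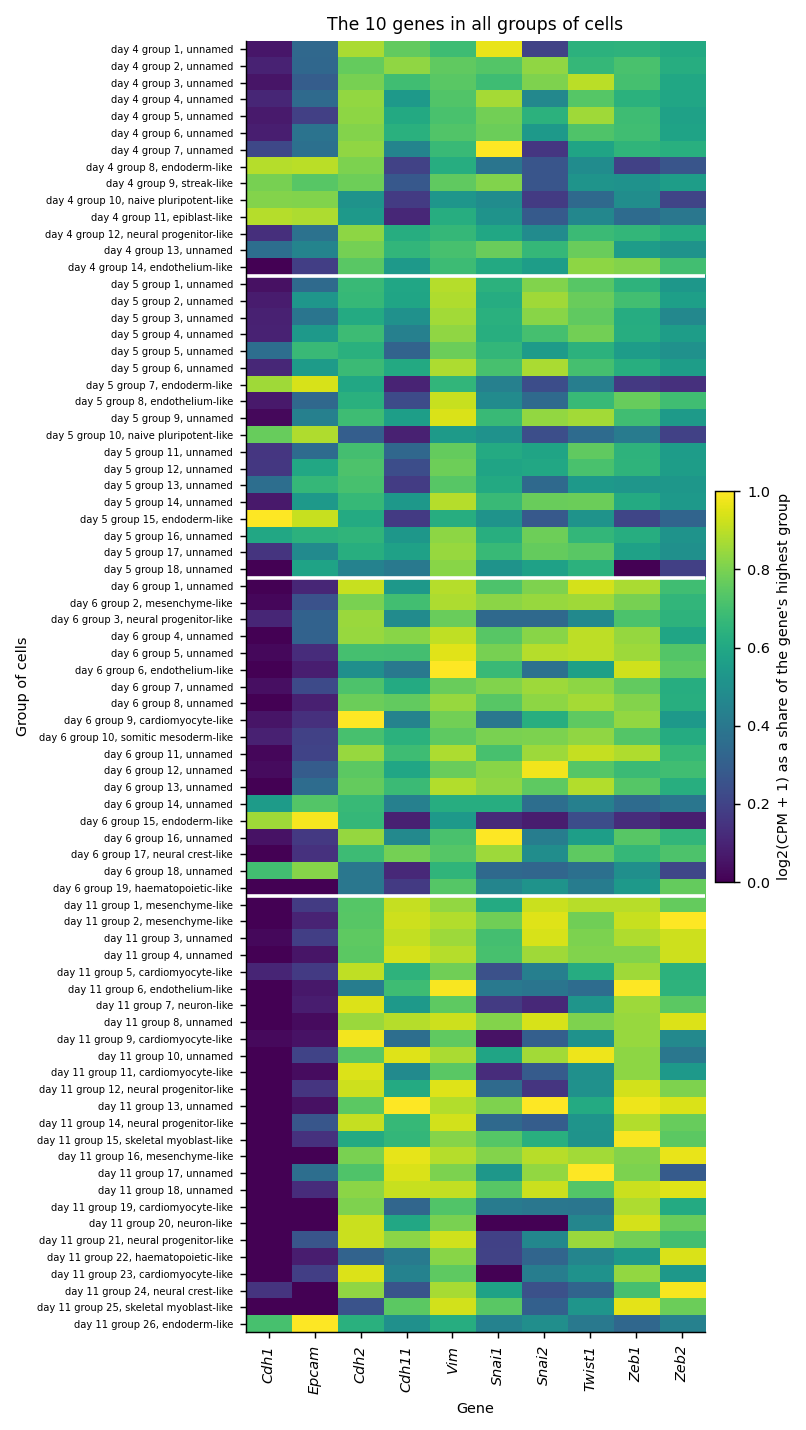
The 10 genes in every group of cells of days 4, 5, 6 and 11 (rows, with their names), as log2(CPM + 1) divided by the gene's highest group, so that colours compare groups within a gene and not genes. *Cdh1* and *Epcam* are high in a few endoderm-like, streak-like and pluripotent groups, in which *Cdh11*, *Snai2* and *Zeb1* are low.

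The Snai and Zeb genes were lower in cells with *Cdh1* alone than in cells with *Cdh2* alone. At day 4, the level in the first class as a ratio to the second was 0.193 for *Snai1* (7.89 against 41.0 CPM), 0.120 for *Snai2* (2.60 against 21.6 CPM), 0.150 for *Zeb1* (4.71 against 31.4 CPM) and 0.173 for *Zeb2* (7.02 against 40.5 CPM). All 4 genes had intervals that did not overlap between the classes at days 4, 5 and 6, and 3 of the 4 at day 11. At day 5 the ratios were 0.442 (0.362 to 0.535), 0.0734, 0.173 and 0.0985 in the same order of genes, and at day 6 0.192, 0.0496, 0.0236 and 0.0194. Of the 4 genes, *Snai1* thus differed least between the classes at each of days 4, 5 and 6. Among these 3 days its ratio was highest at day 5.

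At day 11 the class with *Cdh1* alone had 13 cells. *Snai1* was at 11.3 CPM there, from 4 UMIs in 1 of the 13 cells, and at 9.85 CPM in cells with *Cdh2* alone, a ratio of 1.15 whose interval of 0.312 to 2.96 does not set a direction. *Snai2* (0.100, from 1 UMI, with an interval of 0.00253 to 0.558), *Zeb1* (0.127) and *Zeb2* (0.347) were lower. The other genes sorted the same way: *Epcam* was 23.8-fold, 13.1-fold, 96.1-fold and 239.7-fold higher in cells with *Cdh1* alone at days 4, 5, 6 and 11, and *Cdh11* (0.0284, 0.0552, 0.142 and 0.0621), *Twist1* (0.115, 0.124, 0.0428 and 0.159) and *Vim* (0.388, 0.130, 0.103 and 0.137) were lower.

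Cells with both cadherins lay between the 2 classes at day 4 for all 4 genes, with 15.2 CPM of *Snai1*, 5.30 CPM of *Snai2*, 8.57 CPM of *Zeb1* and 15.7 CPM of *Zeb2*. Their *Epcam* was 264.0 CPM, closer to the 311.1 CPM of cells with *Cdh1* alone than to the 13.1 CPM of cells with *Cdh2* alone. The classes of day 4 differed in make-up. Of cells with both, 44.4% and 24.0% were in the endoderm-like and streak-like groups. Of cells with *Cdh1* alone, 31.7% and 29.3% were in the naive pluripotent-like and epiblast-like groups. The pooled levels thus do not show a middle level within a group. At day 5 *Snai2* (8.64 CPM), *Zeb1* (7.95 CPM) and *Zeb2* (7.73 CPM) again lay between, while the interval of *Snai1* (9.02 CPM, 7.47 to 10.8) overlapped that of cells with *Cdh1* alone (5.60 to 8.17). At day 6, *Snai1* in cells with both was at 4.09 CPM and overlapped the 4.71 CPM of cells with *Cdh1* alone, and *Zeb1* (11.0 CPM) and *Zeb2* (9.43 CPM) were higher than in those cells. At day 11, with 11 cells, *Zeb2* was at 4.73 CPM (0.572 to 17.1), against 53.7 CPM (32.4 to 83.9) in cells with *Cdh1* alone, and *Snai1* had no UMI (up to 8.72 CPM). The 53.7 CPM rest on 19 UMIs in 4 of the 13 cells, and the counting interval does not cover the spread between cells. Cells with neither cadherin were nearer to cells with *Cdh2* alone, with 30.1 CPM of *Snai1* and 45.9 CPM of *Epcam* at day 4. The part of doublets that escaped removal was not tested. With the cells of high doublet score kept, the thinned share of cells with both was 1.39% in place of 1.28% at day 4.

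**Figure D5:**
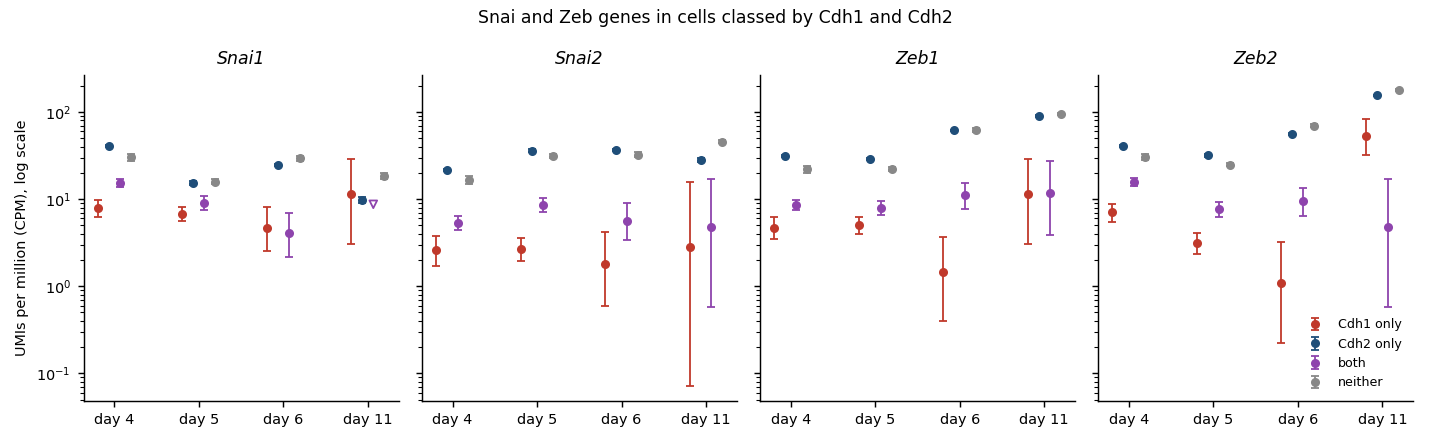
Level of *Snai1*, *Snai2*, *Zeb1* and *Zeb2*, in CPM on a log scale, in cells with *Cdh1* alone, *Cdh2* alone, both or neither at each day, with 95% Poisson intervals; a triangle marks the upper bound where no UMI was counted. Cells with *Cdh1* alone are below cells with *Cdh2* alone in all panels except for *Snai1* at day 11, where 11.3 and 9.85 CPM overlap.

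The classes hold different groups of cells, so the same comparison was made within groups. In the streak-like group of day 4, *Snai1* was at 27.6 CPM (19.8 to 37.4) in 67 cells with *Cdh1* alone and 53.7 CPM (45.5 to 63.0) in 137 cells with *Cdh2* alone, intervals that do not overlap. *Zeb1* was at 7.40 CPM (3.69 to 13.2) and 17.1 CPM (12.6 to 22.6), which overlap, as do *Zeb2* at 21.5 and 26.0 CPM and *Snai2* at 1.35 and 2.85 CPM. *Epcam* in that group was at 244.3 and 61.2 CPM, and *Vim* at 568.7 and 685.7 CPM. In the streak-like group, cells with *Cdh1* alone therefore carried more *Snai1* than cells with *Cdh1* alone over the whole day (7.89 CPM).

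In the endoderm-like group of day 4, *Snai1* was at 6.36 CPM (3.29 to 11.1) in 75 cells with *Cdh1* alone and at 7.12 CPM (3.42 to 13.1) in 66 cells with *Cdh2* alone. The intervals of *Snai2*, *Zeb1* and *Zeb2* overlapped as well, and all 4 genes were at 7.12 CPM or less in both classes, while *Vim* was at 164.4 and 267.1 CPM. In the larger endoderm-like group of day 5, *Snai1* was at 4.47 CPM (2.95 to 6.51) and 10.2 CPM (5.07 to 18.2), which overlap, and *Vim* at 184.4 and 262.9 CPM. In the unnamed group of 98 cells at day 5 described above, *Epcam* was at 165.0 CPM in 11 cells with *Cdh1* alone and 37.3 CPM in 52 cells with *Cdh2* alone, and *Vim* at 595.8 and 1271 CPM, while the intervals of all 4 Snai and Zeb genes overlapped.

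The pluripotent groups of day 4 had few cells with *Cdh2* alone. In the naive pluripotent-like group, *Snai1* was at 3.07 CPM (1.534 to 5.498) in 119 cells with *Cdh1* alone and 30.3 CPM (13.1 to 59.8) in 9 cells with *Cdh2* alone, which do not overlap. In the epiblast-like group it was at 5.08 CPM (2.96 to 8.14) in 110 cells and 16.2 CPM (5.26 to 37.8) in 12 cells, which overlap. The intervals of *Snai2*, *Zeb1* and *Zeb2* overlapped in both groups. By counting intervals, *Snai1* was thus lower in cells with *Cdh1* alone in the streak-like and naive pluripotent-like groups of day 4. Its intervals overlapped in the endoderm-like and epiblast-like groups. The naive pluripotent-like comparison rests on 9 cells with *Cdh2* alone, and the counting interval does not cover the spread between cells.

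Over the 77 groups of the 4 days, the genes closest to each member were found by Pearson's r of log2(CPM + 10) among 7063 genes with at least 50 CPM in a group. Groups of a day share a library and differ in depth and size, so r is a description and has no p-value. *Cdh1* was closest to *Cldn6* (r = 0.94), *Cldn7* (0.92) and *Ap1m2* (0.92), and *Epcam* to *Spint1* (0.95), *Cldn7* (0.93) and *Kcnk1* (0.92). *Cldn6* and *Cldn7* encode claudins of tight junctions. *Cdh11* was closest to *Pcdh18* (0.86), *Pdgfrb* (0.80) and *Arhgef40* (0.80), and *Snai2* to *Twist2* (0.85), *Pdgfrb* (0.79) and *Twist1* (0.77). *Twist1* was closest to *Twist2* (0.80), *Prrx1* (0.78) and *Snai2* (0.77). *Zeb1* was closest to *Cep170* (0.82), *Trim35* (0.79) and *Map7d1* (0.78), and *Zeb2* to *Zeb2os* (0.82), *Cnrip1* (0.77) and *Sh3kbp1* (0.74). *Zeb2os* is antisense to *Zeb2*, and whether reads were counted by strand is not given in the sources used here, so the 2 may share reads.

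*Cdh2* had no gene above r = 0.77 (*2900097C17Rik*), followed by *Arl3* and *March6* (0.70 each), *Vim* none above 0.73 (*Snx17*, then *Nbdy* at 0.70 and *Fbn1* at 0.68), and *Snai1* none above 0.63 (*Peg3*, *Has2* and *Foxc1*). Among the 10 genes, the highest r was 0.90 between *Cdh1* and *Epcam*, and the lowest was -0.82 between *Epcam* and *Zeb1*, followed by -0.70 between *Epcam* and *Zeb2* and -0.69 between *Cdh1* and *Zeb1*. *Snai1* had r = -0.25 with *Cdh1* and -0.23 with *Epcam*, and *Cdh2* had r = -0.34 with *Cdh1*. Over the groups of all days together, *Cdh1* was therefore most opposite to *Zeb1* and *Vim* (-0.66), and less so to *Cdh2* and *Snai1*. These r pool days whose levels differ. From day 4 to day 11 the median over groups went from 26.2 to 77.0 CPM for *Zeb1* and from 359.1 to 1426 CPM for *Vim*. For *Snai1* it went from 27.5 to 7.84 CPM. The median of *Cdh1* was at most 0.925 CPM at any day, so its r rests on few groups. The part of the days in r was not tested.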

How the data were processed

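The authors deposited, for each of 4 libraries, UMI counts of genes by barcodes with no normalization. The submitters' processing notes name Cell Ranger 3.1.0 and mm10, and the matrix header of day 11 gives version 6.0.1 where the others give 3.1.0, so that day and version cannot be told apart there. The features GFP and tdTomato had 0 UMIs. The labels give no replicate, and each day is 1 sample.

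From the deposited counts, cells were kept with over 200 genes, under 20% mitochondrial and over 5% ribosomal protein UMIs, and log10 totals no more than 3 scaled MADs (median absolute deviations) from their centre, which left 6555, 6457, 5254 and 7854 of 7324, 7794, 6628 and 9584 barcodes after the 8% with the highest doublet score (2 simulated doublets per cell) were removed. Kept cells held 194059421, 198889587, 150018809 and 114027712 UMIs, and the lowest cell of a deposited matrix held 500 to 501. Clustering followed the study's methods: counts scaled to 10000 per cell, 2000 variable genes without the 10 members, 30 components, 20 neighbours and Leiden (leidenalg 0.10.2) at resolution 1. A group took a name if at least 3 markers of 1 type were raised 2-fold over the other cells; of the groups, 6, 4, 8 and 19 were named and 2 were left unnamed by hand because keratins or interferon response genes led them. No difference was tested: CPM has exact Poisson, ratios conditional binomial and shares Clopper-Pearson intervals (scipy 1.17.1), and the limit beside a count of 0 is 3 counts of the total. Genes named beyond the members are the first by ratio in each list, the 3 with the highest r, and the 3 leading genes of a group. No group of day 4 was somitic mesoderm-like, so the background there came from endothelium-like cells. Alternatives covered scaling (TMM from edgeR 4.0.16), doublets, cell filters, thinning depth, the UMIs that make a cell positive, and clustering. The members, lists and markers were chosen with earlier results of these data known. The interval code was tested on simulated data. Promoter windows are from RefSeq. Some results are not reported here.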

Additional observations from a re-analysis of the deposited data

How the results depend on the processing

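With 1 library per day, depth sets what can be seen: at day 11, *Cdh1* rests on 45 UMIs, and cells with both cadherins number 11. No paired analysis was possible because each day has 1 library. The counts of members past 2-fold (4, 6 and 4) were 4, 4 to 7 and 4 to 5 over the scalings and cell filters, and 5, 8 and 6 with a 1.5-fold limit. No ratio past the rule changed direction, but some ratios near 1 did. From day 5 to day 6, *Snai2* (1.15) and *Vim* (1.13) were at 0.9985 and 0.989 by the median of ratios. From day 6 to day 11, *Vim* (1.06) was at 0.982 with TMM factors. In that step *Snai2* (1.02) was at 0.939 with TMM factors and at 0.988 by the median of ratios, but at 1.13 with the mean CPM per cell. The number of Snai and Zeb genes that were lower in cells with *Cdh1* alone was the same in each alternative run. Of the ratios of members under other scalings and cell filters, 81 differed from the value given by less than its interval and 99 by more. The share of all genes past 2-fold in either direction was 24.9%, 30.5% and 25.4% in the 3 steps, 16.6%, 21.7% and 17.2% with at least 500 UMIs and 31.4%, 35.6% and 30.7% with 1 UMI in each library.

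The *Cdh1* share of the UMIs of *Cdh1* and *Cdh2* moved with the mean CPM per cell (12.4%, 24.2%, 1.97% and 0.263% at days 4, 5, 6 and 11), with every barcode of over 200 genes (24.6%, 3.23% and 0.944% at days 5, 6 and 11) and without the endoderm-like groups (8.78%, 9.31%, 0.834% and 0.0757%). The share of cells with both cadherins depends on depth by construction. It was 0.549%, 0.232%, 0.0190% and 0% at days 4, 5, 6 and 11 at 3000 UMIs, 3.58%, 1.39%, 0.194% and 0.0205% at 10000 UMIs (at day 11 not above the 0.0265% at 5000 UMIs), and 9.41%, 5.44%, 1.16% and 0.140% without thinning. With at least 2 UMIs of each gene it was 0.0763%, 0%, 0.0191% and 0%. The percent of *Cdh1* UMIs in groups with a *Cdh1* share of at least 20% was 94.1% at day 5 at resolution 1.5, and 93.3% at day 11 with the members among the variable genes; the cause was not tested.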

Other observations

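The cells removed by the filter on high UMI totals differed in *Cdh1* and *Epcam* from the kept cells at each day. At day 11, 190 such cells with a median of 81029.0 UMIs had 4.41 CPM of *Cdh1* and 53.5 CPM of *Epcam*, against 0.395 and 9.22 CPM in the kept cells. At day 6, 35 such cells had 13.6 and 103.7 CPM, against 2.68 and 28.4 CPM. At day 5, 79 such cells had 18.3 and 122.5 CPM, and at day 4, 42 such cells had 19.0 and 74.2 CPM. The 766 cells removed for a low total at day 11 had 3.89 CPM of *Cdh1* and 24.65 CPM of *Epcam*, which rest on 3 and 19 UMIs.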
